A study of Drosophila melanogaster with 4 samples.

Results

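This report describes the binding regions of CP190 on the X chromosome of Drosophila melanogaster, mapped by chromatin immunoprecipitation and sequencing (ChIP-seq) in whole embryos. The embryos were of the wild-type strain Oregon-R and were labelled 14 to 16 h old, with no mutation and no treatment in any sample. There were 2 CP190 ChIP samples and 2 input samples of unselected chromatin, and the labels cross their numbers, pairing ChIP replicate 1 with input 2 and ChIP replicate 2 with input 1. The regions analysed are the clusters of the authors' combined list that lie on X with a midpoint at or below 20422827, which leaves out the 2 Mb next to the centromere. That rule gave 1452 of the 7960 clusters of the combined list. The same limit gave 828 of 4461 clusters in the list of ChIP replicate 1 and 906 of 4900 in that of ChIP replicate 2. The comparison was with arms 2L, 3L and 3R, also without their 2 Mb next to the centromere, which held 4440 combined clusters. Coordinates are on FlyBase release 5.

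CP190 carries a BTB domain and zinc fingers and is thought to bind few DNA sequences on its own. DNA-binding insulator proteins such as CTCF, Su(Hw) and BEAF-32 bring it to chromatin, where it is found at insulators, at borders of chromatin domains and near many active promoters. The fly X differs from the autosomes in copy number between the sexes, because males carry a single X and females a pair. In males the MSL complex (the dosage compensation complex) binds the X and raises the transcription of its genes. The labels do not give the sex of the embryos, and whole collections normally hold both sexes. Whether both ChIP samples came from separate embryo collections is not said in the labels, and the spread between them may be technical.

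X was the densest of the 4 arms in CP190 clusters, by a small margin, and its clusters had slightly higher scores. The combined list held 71.1 clusters per Mb on X, against 63.9 on the 3 autosomal arms, a ratio of 1.11 (exact 95% interval 1.05 to 1.18, which covers counting error only). The single arms had 60.3 on 2L, 63.5 on 3L and 67.2 on 3R. In replicate 1 X had 40.5 clusters per Mb, against 36.4 on the autosomal arms, and in replicate 2 it had 44.4 against 40.6. X was the highest of the 4 arms in each of the 3 lists. Clusters covered 15.1% of the X sequence, against 13.2% of the autosomal sequence, in the combined list.

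These comparisons set 1 arm against 3, and each of the 2 ChIP samples gives 1 value of each difference. An exact one-sided permutation over the 4 arms could not give a p below 0.25, nor could an exact one-sided sign test over the 2 ChIP samples, so no p is given. Clusters of 1 list are not replicates of each other, and the repeat of a direction in the second ChIP replicate is given in place of a test. The combined list covers the same ChIP samples, so it is not treated as independent of the replicate lists.

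Each cluster carries 1 deposited value, read as a log2 enrichment score for the reasons given with the processing. The median log2 score on X was 0.46 in the combined list, against 0.40 on the autosomal arms, a difference of 0.06, or a ratio of 1.05. The 3 autosomal arms differed little from each other, with medians of 0.39 to 0.40. In replicate 1 the median log2 score was 0.65 on X, against 0.57 on the autosomes and 0.56 to 0.59 on the single arms. In replicate 2 it was 0.69 on X, against 0.61 on the autosomes and 0.60 to 0.62 on the single arms. The difference was 0.08 in each replicate list, and the X median lay outside the range of the 3 autosomal arms in each of the 3 lists.

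**Figure D1:**
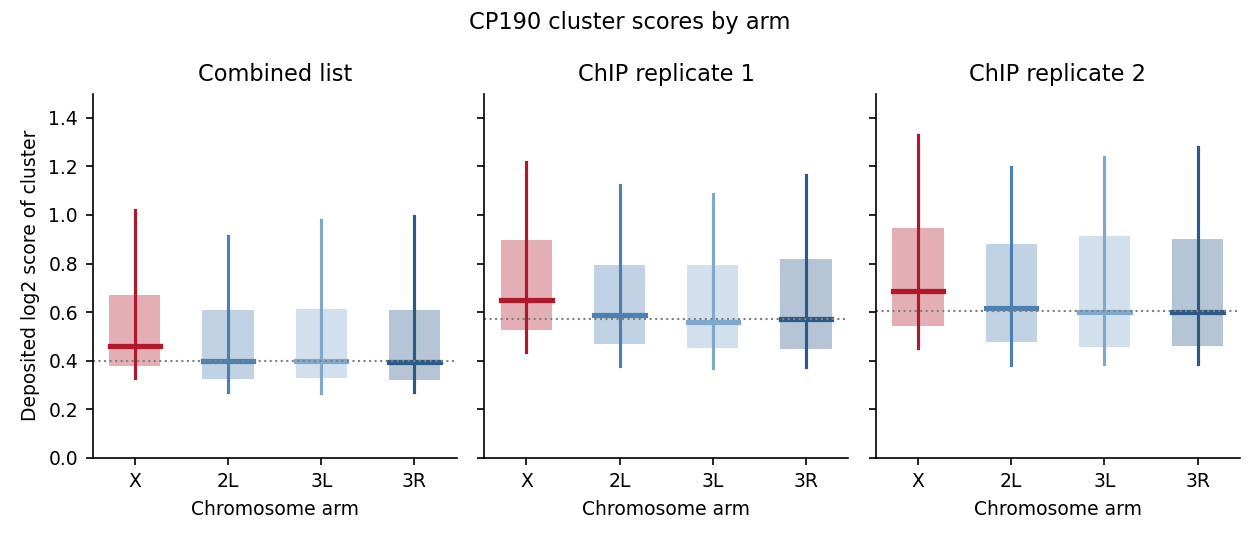
Deposited log2 scores of CP190 clusters on X, 2L, 3L and 3R in the combined list and in each ChIP replicate. Thick lines are medians, boxes run from the 25th to the 75th percentile, thin lines from the 10th to the 90th, and the dotted line is the median of the 3 autosomal arms. The X median is 0.46 in the combined list, 0.65 in replicate 1 and 0.69 in replicate 2, above every autosomal arm in each.

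The offset ran through most of the score distribution but not to its very top. At the 1st percentile the log2 score in the combined list was 0.22 on X, against 0.18 on the autosomes. At the 25th percentile it was 0.38 on X, against 0.32, and at the 75th percentile it was 0.67 on X, against 0.61. At all 8 percentiles examined from the 1st to the 95th, X lay above every autosomal arm in all 3 lists. At the 99th percentile the combined list had 1.77 on X, against 1.78 on the autosomes and 1.66 to 1.82 on the single arms. In the replicate lists it was 1.91 on X, against 1.79 to 1.95 on the single arms, in replicate 1 and 2.05 on X, against 1.92 to 2.04, in replicate 2. The highest X score was 2.44, against 2.89 on 2L, 2.39 on 3L and 3.42 on 3R. At the 95th percentile the difference of X from the autosomes was 0.08 in the combined list. At the 90th it was 0.10 in replicate 1 and 0.09 in replicate 2. The scores of X were therefore shifted up to the 95th percentile. At the 99th X lay within the range of the autosomal arms in the combined list and replicate 1 and just above it in replicate 2.

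Clusters were also counted above the median log2 score of each list, which in the combined list (0.41) lies between the X and autosomal medians. In the combined list 935 X clusters (64.4%) had a log2 score above the median of the whole list, against 45.9% of autosomal clusters. Per Mb this was 45.8 on X, against 29.3 on the autosomes, a ratio of 1.56 (exact interval 1.44 to 1.69, counting error). In replicate 1 the share above the list's own median was 61.7% on X, against 47% on the autosomes, with a density ratio of 1.46. In replicate 2 it was 59.1% on X, against 47.8%, with a density ratio of 1.35.

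Higher up the scale the difference was smaller in the combined list. Among the highest 25% of scores the density ratio of X to the autosomes was 1.33 in the combined list, 1.43 in replicate 1 and 1.23 in replicate 2. For the highest 10%, X had 145 combined clusters (9.99% of its clusters), against 8.76% of autosomal clusters, and the density ratio was 1.27 (1.04 to 1.54). The single arms differed, with shares of 7.89% on 2L, 8.60% on 3L and 9.53% on 3R. The density ratio was 1.49 against 2L alone, 1.30 against 3L alone and 1.11 against 3R alone. In replicate 1 the shares in the highest 10% were 11.2% on X and 9.18% on the autosomes, and in replicate 2 they were 11.6% on X and 9.36% on the autosomes. The density ratios there were 1.36 and 1.35. For the highest 1% X had 6 combined clusters (0.413% of its clusters), against 20 on the 3 autosomal arms (0.450%). The density ratio was 1.02, with an interval of 0.335 to 2.63. It was 1.19 in replicate 1 and 1.09 in replicate 2. At that level a difference in either direction was not detectable with these numbers of clusters.

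**Figure D2:**
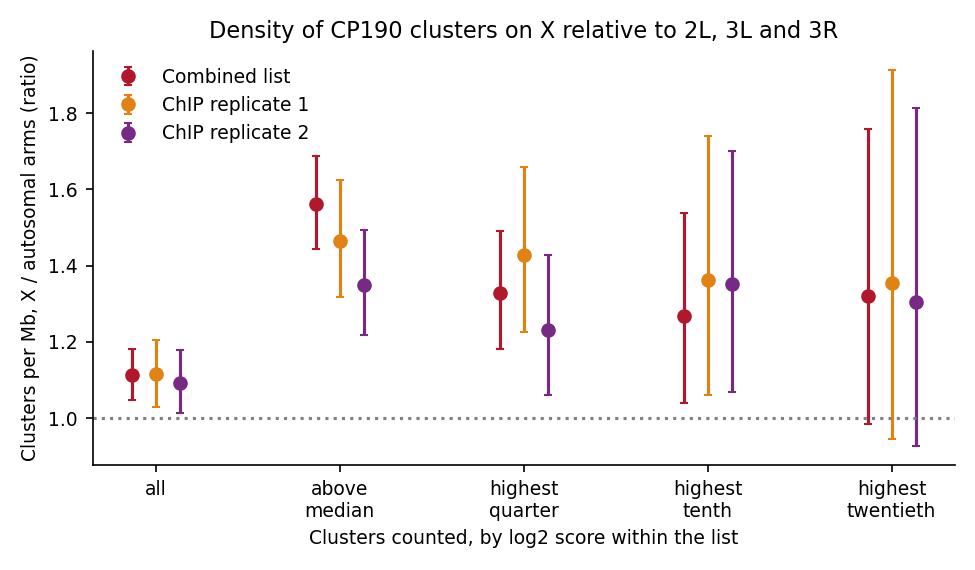
Ratio of CP190 clusters per Mb on X to those on 2L, 3L and 3R together, for all clusters and for those in higher parts of each list's log2 scores. Points are ratios and bars exact 95% intervals that cover counting error only. The combined list rises to 1.56 above the median and is 1.27 in the highest 10%, the points of all 3 lists lie above 1, and the 3 intervals for the highest 5% include 1.

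The deposited scores also carry information on the numbers behind them. Raised from the log2 scale and divided by 1 constant per list, every score is a ratio of whole numbers, here called numerator and denominator. The files do not say what they count. In a ratio of ChIP over input the denominator would be the input, and both are known only after common factors have cancelled. Clusters differ in length, and the terms were compared per kb of cluster.

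Denominators per kb were lower on X than on the autosomes by nearly the same factor in all 3 lists. The 90th percentile in the combined list was 208 per kb on X, against 277 on the autosomes, a ratio of 0.752. In replicate 1 it was 108 on X, against 144, a ratio of 0.747. In replicate 2 it was 107 on X, against 142, a ratio of 0.757. The autosomal arms were close to each other, with the lowest at 0.994 to 0.996 times the highest within each list. In the distribution of denominators per kb the main peak of X lay to the left of the autosomal one in each list.

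**Figure D3:**
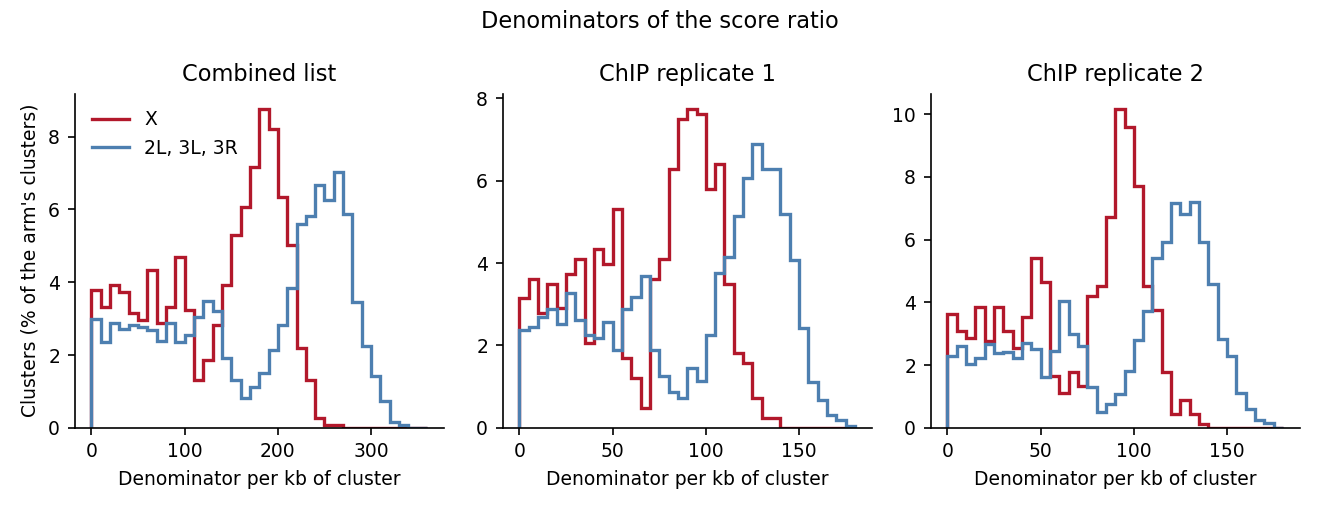
Denominator of the whole-number score ratio per kb of cluster, as a percentage of the clusters of X and of 2L, 3L and 3R, in each list. Lower values can come from ratios that lost a common factor or from terms that were low to begin with, which the files do not tell apart. The 90th percentile is 208 per kb on X and 277 on the autosomes in the combined list.

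The numerators were lower on X too, but by less. The 90th percentile of the numerators per kb, over all clusters, was 360 on X in the combined list, against 443 on the autosomes, a ratio of 0.814. In replicate 1 it was 201 on X, against 255, a ratio of 0.788. In replicate 2 it was 228 on X, against 285, a ratio of 0.798. Each score combines both terms, so the smaller drop in numerators and the higher scores on X are not separate observations. The part of the lower terms in the scores, or in where the authors' threshold fell on X, was not tested.

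How often the replicates supported an X cluster was close to the autosomal rate over all scores. Support here means at least 1 bp of overlap with a cluster of that replicate's list. Of the 1452 X clusters, 683 were found in both replicates (47.0%, exact 95% interval 44.4 to 49.6%), against 48% of autosomal clusters. Replicate 1 alone held 110 of the rest (7.58% of X clusters), against 6.67% of autosomal clusters. Replicate 2 alone held 195 (13.4%), against 14.4%. The other 464 were found in neither (32.0%, 29.6 to 34.4%), against 30.9% of autosomal clusters. The replicate lists held no cluster shorter than 1301 bp, while the combined list went down to 1001 bp. The clusters found in neither had median lengths of 1255.5 bp on X and 1262 bp on the autosomes, below the shortest replicate cluster. Seen from the replicate lists, 84.8% of the X clusters of replicate 1 overlapped one of replicate 2, against 85.8% on the autosomes, and 76.7% of those of replicate 2 overlapped one of replicate 1, against 76.4%.

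The support of X clusters above the median score was different. Of the 935 X clusters above the median of the combined list, 607 were found in both replicates (64.9%, exact 95% interval 61.8 to 68.0%), against 85.1% of autosomal clusters. Those found in neither made up 217 (23.2%, 20.5 to 26.1%), against 9.97%. The single autosomal arms had 9.35 to 10.5% in neither. Per Mb there were 10.6 such unsupported X clusters, against 2.92 on the autosomes, a ratio of 3.64. Clusters found in both replicates numbered 29.7 per Mb on X, against 24.9, a ratio of 1.19. For clusters found in 1 replicate the ratio was 3.84 (replicate 1 only) and 3.74 (replicate 2 only). At this cut the ratio was larger in each of these 3 classes than among clusters found in both replicates. The cut, a log2 score of 0.41, lay below the X median and above the autosomal one. In the 3 classes it lay near the X medians (0.38 to 0.41) and above the autosomal ones (0.32 to 0.35). For clusters found in both replicates it lay below both medians (0.68 on X and 0.61 on the autosomes). The part of the cut in these ratios and shares was not tested, and they are not read as a trait of X.

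The offset in score was present in every class of support. For clusters found in both replicates the median log2 score was 0.68 on X, against 0.61 on the autosomes. For those found in replicate 1 only it was 0.40 on X, against 0.32, and for those found in replicate 2 only it was 0.38 on X, against 0.32. For clusters in neither replicate it was 0.41 on X, against 0.35. The 90th percentile of the denominators per kb was 0.748 to 0.752 times the autosomal one in all 4 classes. The median log2 score of unsupported X clusters lay next to the median of the whole list, 0.41, so that 46.8% of them passed it, against 14.8% on the autosomes.

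Within X, support rose steeply with the score. In the highest 25% of X clusters by log2 score (0.67 to 2.44), 96.4% were found in both replicates and 2.75% in neither. In the next 25% (0.46 to 0.67) these shares were 60.1% and 27.8%. In the lower parts they were 19.6% and 49.9% (0.38 to 0.46) and then 12.1% and 47.4% (0.17 to 0.38). Most X clusters below the X median of 0.46 were thus missing from at least 1 replicate list.

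Median cluster length on X was close to that on the autosomes. The median was 2000 bp on X and 2000 bp on the autosomes in the combined list, 2053 and 2042 bp in replicate 1, and 2071 and 2077 bp in replicate 2. The long tail was somewhat heavier on X in the combined list, with a 90th percentile of 3235 bp, against 3066 bp on the autosomes. Clusters of 3500 bp or more were 7.37% of X clusters, against 6.51%. In the replicate lists they were 4.83% on X against 4.71%, and 6.40% on X against 6.38%, so that this tail differed little there. Supported X clusters were longer than unsupported ones, with a median of 2323 bp for those in both replicates, against 2256 bp on the autosomes, and 1255.5 bp for those in neither, against 1262 bp.

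The strongest supported X clusters were found at matching places in both replicates. The 20 X clusters with the highest combined log2 score among those in both replicates were also the 20 highest of X as a whole. Each of them overlapped exactly 1 cluster in each replicate. Their combined log2 scores ran from 1.68 to 2.44, and from 1.54 to 2.54 in replicate 1 and 1.74 to 2.41 in replicate 2. They ranked between 44 and 156 among the 7960 clusters of the combined list, and 6 of them were in its highest 1%. The clusters ranked above 44 all lay outside this part of X.

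The highest X cluster lay at chrX:1846010-1848449, with a combined log2 score of 2.44, and 2.54 and 2.41 in replicates 1 and 2. Its smallest whole-number ratio was 2488 to 445. The second lay at chrX:5417615-5419920, with 2.30 in the combined list and 2.18 and 2.39 in the replicates. The third lay at chrX:3463294-3465718, with 2.18, and 2.22 and 2.19. These 3 clusters had lengths of 2306 to 2440 bp, close to the typical length of a supported cluster, and the replicate boundaries lay near the combined ones. For the first, replicate 1 began at 1846015 and replicate 2 at 1846039.

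The next ones lay at chrX:17424772-17427969 (combined log2 score 2.13), chrX:3704225-3706745 (2.10), chrX:13456169-13458845 (2.04) and chrX:18131545-18134648 (2.03). In the last of these the replicates gave 2.03 and 2.06, nearly the same. The cluster at chrX:2312536-2314896 had 2.01 in the combined list but 1.76 in replicate 1 and 2.26 in replicate 2. A similar gap was seen at chrX:17644659-17647090, with 2.00 combined, 1.83 in replicate 1 and 2.18 in replicate 2. The clusters at chrX:4559869-4562488, chrX:11587860-11590395 and chrX:10660879-10663636 had combined log2 scores of 1.93, 1.92 and 1.85.

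The remaining 8 of the 20 had combined log2 scores of 1.68 to 1.83. They lay at chrX:422785-425965, chrX:8569896-8572159, chrX:9577341-9583193, chrX:6002969-6005329, chrX:2210522-2212803, chrX:3027560-3031631, chrX:18528035-18530681 and chrX:18212930-18217765. The cluster at 9577341 was 5853 bp long, the longest of the 20, and its replicate clusters were 5734 and 5796 bp long, with log2 scores of 1.77 and 1.80. The cluster at 2210522 differed most in rank, being 149 in replicate 1 (1.54) and 75 in replicate 2 (1.93). Replicate 2 gave the higher log2 score at 17 of the 20. No gene is named for any of them, because the annotation used here is of another genome release.

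X clusters that scored high in one replicate mostly did so in the other. Among 669 pairs of X clusters that overlapped each other and no further cluster, the Spearman correlation of the log2 scores was 0.794 and the Pearson correlation 0.891, across clusters that share their libraries. The autosomal arms had Spearman values of 0.799 on 2L, 0.802 on 3L and 0.839 on 3R. The mean difference of replicate 2 from replicate 1 was 0.09 ± 0.18 on X (SD over pairs), against 0.09 to 0.10 on the autosomal arms. Replicate 2 was higher in 71.0% of X pairs, against 71.3 to 73.6% on the autosomal arms. Each list has its own constant in its scores, so a shift of a whole list against the other is not read as a difference in binding.

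**Figure D4:**
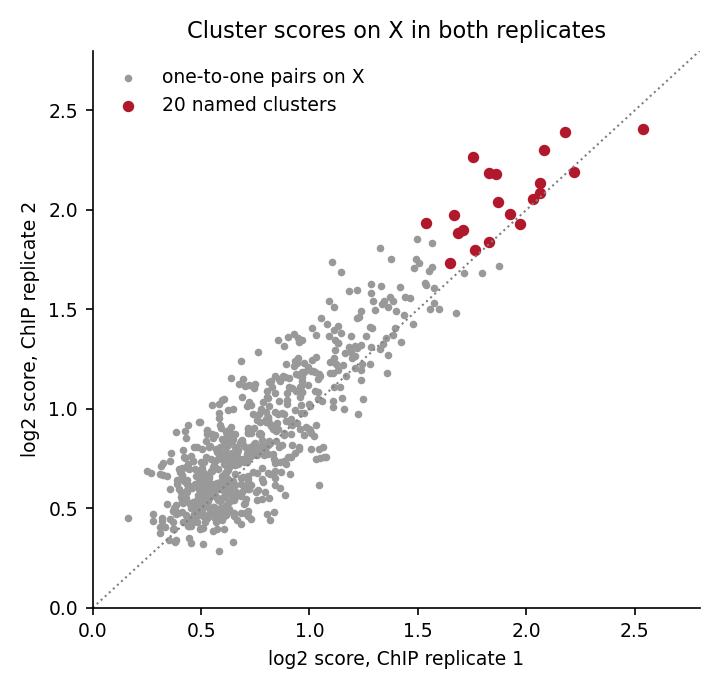
Deposited log2 scores of 669 one-to-one cluster pairs on X in ChIP replicate 1 and ChIP replicate 2, with the 20 named clusters in red and the line of equal scores dotted. The named clusters lie at 1.54 to 2.54 in replicate 1 and 1.74 to 2.41 in replicate 2, and 17 of them are above the line.

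The longest X clusters were partly split into several clusters in the replicate lists. The longest lay at chrX:7823504-7833263 and measured 9760 bp, longer than any on 2L (7707 bp), 3L (8034 bp) or 3R (8357 bp). Its combined log2 score was 1.00, and replicate 1 had 3 clusters overlapping it and replicate 2 had 2. The second, at chrX:7949727-7958596, measured 8870 bp, had a log2 score of 1.35 and overlapped 2 clusters of replicate 1 and a single one of 8789 bp in replicate 2. The third, at chrX:19530210-19538112, measured 7903 bp and had a log2 score of 0.90. The first and second lie within the same 1 Mb interval.

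The highest-scoring X clusters found in neither replicate were short and had small numbers in their ratios. They lay at chrX:6456786-6457944 (log2 score 1.09), chrX:6328656-6329656 (1.05), chrX:4710271-4711325 (1.05), chrX:20375150-20376241 (0.83) and chrX:2504213-2505474 (0.81). Their lengths were 1001 to 1262 bp, below the 1301 bp of the shortest cluster in the replicate lists. Their smallest whole-number ratios were 46 to 21, 49 to 23, 17 to 8, 73 to 40 and 85 to 47. The denominators came to 7.58 to 37.2 per kb, against a 90th percentile of 208 over all X clusters. Common factors may have cancelled in these ratios.

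CP190 clusters were spread along the whole of X. Over the 20 full 1 Mb intervals the combined list held 54 to 105 clusters, with a median of 73.5. The fullest was the second interval, from 1000001 to 2000000, with 105 clusters, 60 in replicate 1 and 59 in replicate 2, and 22.6% of its sequence covered. It was the fullest in both replicate lists too. Intervals with 54 clusters began at 7000001 and at 12000001. Interval counts in the replicates had a Spearman correlation of 0.747 over 21 intervals, as a description of neighbouring stretches of 1 chromosome.

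The score offset was not limited to a stretch of X. The median log2 score of all 21 intervals in the combined list, 0.43 to 0.52, lay above the autosomal median of 0.40. In each replicate list 19 of 21 X intervals did so. On the autosomes 11 of 21 intervals of 2L, 10 of 23 of 3L and 11 of 26 of 3R had a combined median above that same value. Some autosomal intervals reached values as high as those of X, up to 0.49 on 3R. The highest X interval was from 17000001 to 18000000 (0.52), and the next was from 7000001 to 8000000 (0.51), which holds the longest clusters. In the interval from 7000001 the medians were 0.66 in replicate 1 and 0.90 in replicate 2, the highest of any X interval in replicate 2.

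**Figure D5:**
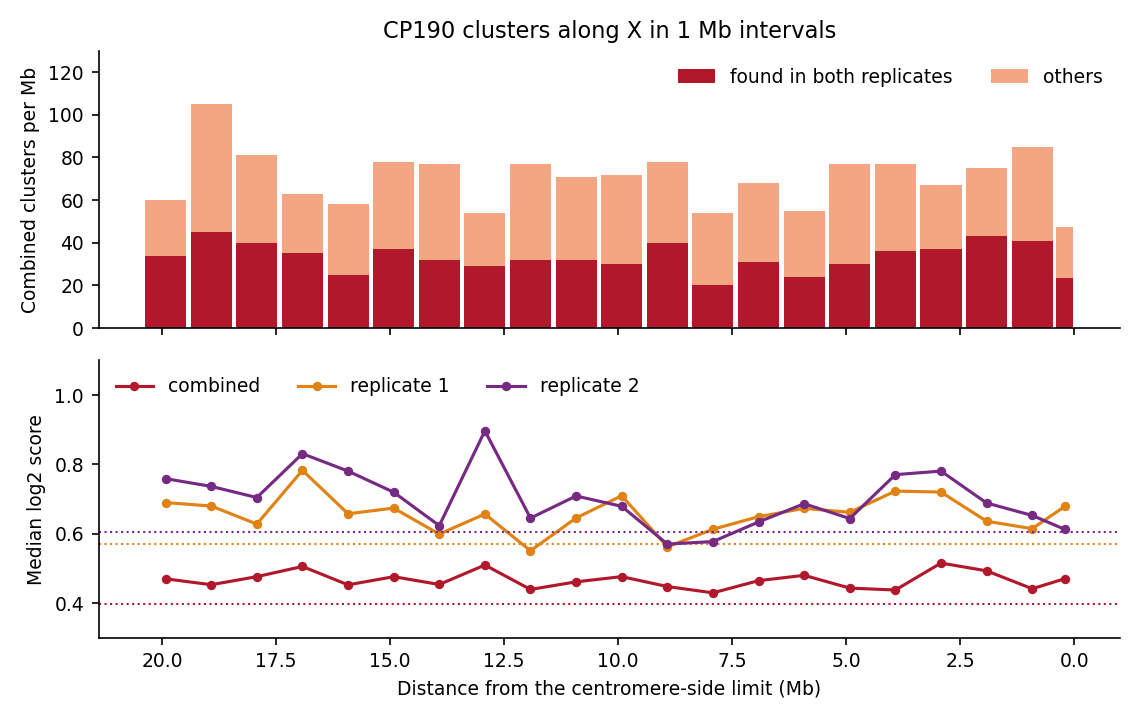
CP190 clusters in 1 Mb intervals of X, by distance from the limit set before the centromere. Bars in the upper panel are combined clusters per Mb, split by replicate support, and lines in the lower panel are median log2 scores in the 3 lists, with the autosomal median of each list dotted. Full intervals hold 54 to 105 clusters, and all 21 combined medians lie above the dotted line at 0.40.

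Neighbouring clusters lay closer together on X. The median distance between neighbouring midpoints was 8505 bp on X, against 9624 bp on the autosomes, in the combined list. It was 13831 bp on X, against 16876.5 bp, in replicate 1 and 12727 bp on X, against 14802 bp, in replicate 2. Within 5 kb of the next lay 29.4% of X neighbours, against 25.4% on the autosomes. In the replicate lists these shares were 17.0% on X against 13.5%, and 19.7% on X against 15.7%. On each of the 3 autosomal arms the combined share was lower than on X, at 24.2 to 26.2%.

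Windows of 100 kb along X held a median of 7 combined clusters, with 5 to 9 between the 25th and 75th percentile. The fullest, from 17700001 to 17800000, held 16, but 9 of these were found in neither replicate, and replicates 1 and 2 had 8 and 5 clusters there. Next were the windows from 2500001 to 2600000 and from 19500001 to 19600000 with 15 each. The first of these was better supported, with 9 clusters in both replicates and 9 and 12 clusters in the replicate lists, where the highest count of any X window was 12 in each. Of 204 windows 1 was empty, from 18800001 to 18900000, and it was empty in all 3 lists. Another 5 windows held 1 cluster each, among them those from 2900001 to 3000000 and from 7400001 to 7500000, where that cluster was found in both replicates.

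Wide stretches without clusters were few. The widest gap on X ran from 2852128 to 2992328, or 140 kb, and held no cluster of replicate 1 and 1 of replicate 2. The next were of 118 kb, from 14260409 to 14378121, and of 110 kb, from 18795330 to 18904908, and neither replicate had a cluster in them. X had 6 gaps over 100 kb in 20.4 Mb. There were 8 on 2L in 21.0 Mb, 9 on 3L in 22.5 Mb and 8 on 3R in 25.9 Mb. Gaps over 50 kb made up 4.20% of the gaps on X. This share was 5.05% on 2L, 4.76% on 3L and 3.91% on 3R. The widest autosomal gaps were 168 kb on 2L, 162 kb on 3L and 151 kb on 3R.

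The last interval inside the position limit was partial, with 20 clusters over 0.42 Mb, or 47.3 per Mb. The full interval before it, from 19000001 to 20000000, held 85. The nearest clusters are given next. Those nearest inside the limit lay at chrX:20395083-20397343 (log2 score 1.33) and chrX:20380498-20383743 (0.62), both found in both replicates. The nearest outside lay at chrX:20431994-20433002 (0.50, in neither) and chrX:20453590-20455354 (0.23, in both). Beyond the limit X held 79 combined clusters, or 39.5 per Mb, with a median log2 score of 0.46, of which 40.5% were found in both replicates.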

How the data were processed

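The submitters' processing notes name Bowtie 0.12.7 as the aligner. As deposited by the authors, the data are 1 list of regions of significant enrichment for each ChIP sample and 1 combined list, on FlyBase release 5 per the file headers. For the caller, its thresholds and the making of the combined list, the sources used here give nothing. The value of each cluster is taken as a log2 value of an enrichment ratio as deposited by the authors. This was read from the values, since 2 raised to the score and divided by 1 constant per list gave a ratio of whole numbers for all 7960, 4461 and 4900 clusters (relative tolerance 1e-12, denominators up to 20000). With base e or 10 at most 0.653% did so. The constant was the most frequent value divided by a simple ratio, chosen so that the share of denominators per kb above 65% of their 90th percentile came nearest to the 60.8% of whole-number pairs that share no factor. It gave 51.1% (combined), 51.7% and 55.2%, against at most 42.1% for the next choice.

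Analyses ran in Python 3.11.15 (pandas 2.3.3, SciPy 1.17.1, NumPy 2.4.6) with plots by matplotlib 3.10.9. The counting of overlaps, the score difference and the ratio terms were tested on simulated data. Shares and density ratios carry exact (Clopper-Pearson) 95% intervals. Read depth is unknown. The set of clusters, the comparisons and the rules for naming clusters were chosen with earlier results of these data known. Named were the 20 highest-scoring X clusters found in both replicates, the 3 longest, the 5 highest in neither, the 2 on each side of the limit, and the 3 fullest and emptiest windows or widest gaps. Sequences and genes were not used, as the gene table is on release 6.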

Additional observations from a re-analysis of the deposited data

How the results depend on the processing

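Over 11 results and 87 alternative values, 64 stayed within the spread of the replicate lists or the interval of the result and 23 moved beyond it. The spread was the SD over the 2 replicate lists. The interval was exact for shares and density ratios. For the Spearman correlation it was approximate and took cluster pairs as independent, although they share their libraries. These measures differ in width, so the counts do not rank the results by stability. The spread of the score difference was 0.0025, so 0.0606 against 2L alone counted as moved. The density ratio over all clusters, 1.11, was 1.18 against 2L alone and 1.06 against 3R alone. Both lay within its interval. The score difference stayed above 0 and the density, cover, distance and denominator ratios kept their side of 1. The score difference of 0.0638 was 0.0707 with clusters found in both replicates, 0.0606 against 2L alone and 0.0671 against 3R alone, and 0.0780 to 0.0816 with a replicate left out (the list of the remaining ChIP sample then stands in for the combined one). The density ratio above the median score, 1.56, was 1.31 with clusters found in both replicates and 1.34 with clusters at least 1301 bp long, each above the median of that subset (1.19 for both replicates at the unchanged median), and 1.35 to 1.46 with a replicate left out. The ratio of sequence covered, 1.14, was 1.13 over whole arms, 1.21 against 2L alone, 1.09 against 3R alone, and 1.11 to 1.12 with a replicate left out. The ratio of distances between neighbours, 0.884, was 0.817 with clusters found in both replicates and 0.820 to 0.860 with a replicate left out. The difference in median length, 0 bp and so without a direction, was -10 bp against 3L alone, -6 to 11 bp with a replicate left out, 67 bp with clusters found in both replicates and 26.5 bp at 1301 bp or more. The share of X clusters found in both replicates, 47.0%, was 58.3% at 1301 bp or more and 64.9% above the median score, and that found in neither, 32.0%, was 17.8% and 23.2%. The causes were not tested. The ratio of denominators, 0.752, was 0.743 and 0.745 under 2 of the 5 other constants. Its 13 alternatives were chosen after seeing the data. Merging could not be applied to it, as a merged cluster has no ratio. No paired analysis was possible because each ChIP sample is 1 list, the inputs act only within what the authors called, and the labels cross the numbers of input and ChIP.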
